A study of Mus musculus with 9 samples.

Results

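The dorsal striatum (dStr), the sensorimotor part of the striatum, was compared with a pair of limbic regions of the mouse forebrain, the BNST (bed nucleus of the stria terminalis) and the NAc (nucleus accumbens). The comparison set 3 dStr arrays against 6 limbic arrays, 3 of BNST and 3 of NAc, and these are all 9 arrays of the series. It was computed as the dStr mean minus the equally weighted mean of the BNST and NAc means, here called the limbic mean. Each sample was tissue punched from a semi-frozen coronal brain slice of 300 µm, and its RNA was read on 1 Affymetrix Mouse430_2 array after a 2-cycle biotin labelling that started from 10 ng of total RNA. Mice were anaesthetised with isoflurane before decapitation, and the labels name no other treatment, drug or transgene in any group. They call the samples biological replicates and give no strain, age, sex or number of mice per punch. If samples shared animals, the p-values measure only the spread between these samples.

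The striatum is built mainly of medium spiny neurons, inhibitory projection cells that receive cortical glutamate and midbrain dopamine. Those of the direct pathway carry the D1 dopamine receptor and the peptide substance P, and those of the indirect pathway carry the D2 receptor and enkephalin. The dorsal part is known for the learning and control of movement, and the NAc, its ventral part, for motivation and reward. The BNST belongs to the extended amygdala, is rich in neuropeptides and is known for its part in anxiety and stress responses.

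The values are probe-set intensities on a linear scale with a common floor of 15, at which 2270 to 2698 of the 45037 probe sets stood on each array. The deposited values were tested as log2(value + 16), which shrinks the folds of dim genes below the ratio of their intensities. The striatal markers Ppp1r1b, Drd1, Drd2 and Rgs9 had their highest group means in dStr, and the BNST markers Crh, Tac2, Calb2, Zic1, Nts and Pnoc in BNST. The NAc markers Cartpt, Wfs1, Dlk1, Crym and Pdyn had theirs in NAc. A further NAc marker, Drd3, did not: it was too dim to be tested, with group means of 32.0 in BNST, 29.9 in NAc and 31.1 in dStr. Of the cortical markers, Neurod6 stood at the floor on 8 of 9 arrays and Tbr1 on 7. Of the cortical projection neuron list, 2 of 14 tested members were higher in dStr and 0 lower, and 1 was higher without BNST 2, NAc 3 or any 1 dStr array. The shares over all genes tested were 6.28% higher and 3.91% lower. The dStr arrays correlated with one another at r of 0.969 to 0.975 across genes, which are not independent replicates. Among the limbic arrays, BNST 1 and NAc 1 stood apart from the others of their regions: BNST 1 correlated at 0.965 with NAc 3 but at 0.934 with BNST 2, and NAc 1 at 0.909 with NAc 3. The mean log2 level of 64 respiratory chain genes, a rough sign of RNA quality, ran from 10.8 to 10.9 on the dStr arrays and was lowest on BNST 2, at 10.3, and NAc 1, at 10.50.

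Promoter sequence is shown for 4 genes that carry the contrast, to set the contrast beside the base composition of their promoters. The windows are from RefSeq on build GRCm38.p6 and run from 250 bases before to 50 bases after a gene's start, 300 bases in all. A window was matched for 678 of the 892 genes higher in dStr and for 444 of the 556 lower ones. For a gene with several windows, the highest CpG count and the highest GC content were taken. The median number of CpG dinucleotides per gene was then 23 for the higher and 18 for the lower genes. It was 20 for all 11357 tested genes with a window. The median GC content was 65.2% and 61.3%, beside 61%. Among the 12 leading genes of each direction described below, the median was 32 CpG in the 9 higher genes with a window and 12.5 in the 8 lower ones. Coch, the gene with the largest difference among those higher in dStr, had 32 CpG in its window, and Tac2, one of the leading genes lower in dStr, had 3, the fewest of the 4 genes shown. The order did not hold gene by gene: Cartpt, lower in dStr, had 26 CpG and a GC content of 66%, and Gpr6, higher in dStr, had 13 and 58.7%. The 160 bases before their starts are printed with each CG in capitals, Coch at chr12:51593181-51593340 on the plus strand with 16 CpG in the stretch, and Tac2 at chr10:127724318-127724477 on the plus strand with 2.
Coch: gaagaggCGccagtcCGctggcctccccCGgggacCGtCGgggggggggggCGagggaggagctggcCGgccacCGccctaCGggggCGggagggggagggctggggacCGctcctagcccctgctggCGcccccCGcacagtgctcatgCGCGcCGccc
Tac2: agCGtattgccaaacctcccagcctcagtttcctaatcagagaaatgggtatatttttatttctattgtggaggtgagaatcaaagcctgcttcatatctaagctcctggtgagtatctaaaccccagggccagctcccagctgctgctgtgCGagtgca
The cyclic AMP response element TGACGTCA, which reads the same on both strands and itself holds a CG, was looked for in the same windows. Cyclic AMP signalling genes form one of the groups below, but the share of that list was not computed. The element was present in 1.79% of all 32851 windows and in any window of 2.03% of all 27025 genes with one. Counted per gene, it was in 3.2% of tested genes, 2.21% of the higher and 2.7% of the lower ones. Neither direction thus held it at a higher share than the tested genes as a whole. By list, 5 of 27 neuropeptide and hormone, 3 of 24 immediate early, 1 of 14 ventral striatum and limbic and 1 of 26 medium spiny neuron genes held it. No test was run on these. Of the neuropeptide and hormone genes that differed between dStr and the limbic mean, Cartpt alone was found to hold it. The immediate early genes Egr2, Egr3, Egr4 and Ier5, higher in dStr, were not among the genes found to hold it. Cartpt, a leading gene lower in dStr, holds it with its first base 112 bases before the start, and Gpr6, higher in dStr, holds it 78 bases before. Their stretches lie at chr13:99900684-99900843 and chr10:41072291-41072450, both on the minus strand, with the element in capitals. A match describes the letters in the window and is not evidence of binding.
Cartpt: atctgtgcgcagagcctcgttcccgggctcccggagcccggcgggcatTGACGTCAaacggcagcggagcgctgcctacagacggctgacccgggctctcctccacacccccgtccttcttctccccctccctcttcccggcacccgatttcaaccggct
Gpr6: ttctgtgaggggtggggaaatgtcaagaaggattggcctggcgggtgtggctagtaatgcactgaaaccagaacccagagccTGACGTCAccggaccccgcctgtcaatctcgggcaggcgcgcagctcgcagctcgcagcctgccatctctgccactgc

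Of 14208 genes tested, 1448 (10.2%) differed between dStr and the limbic mean (limma, adjusted p under 0.05). Of these, 892 (6.28%) were higher in dStr and 556 (3.91%) lower, so that 61.6% of the called genes were higher. An unadjusted limma p under 0.05 was reached by 25.2% of genes. All 3 dStr arrays lay above the 6 limbic arrays in 728 of the 892 higher genes and below them in 425 of the 556 lower ones, against 8.3% and 5.95% of all genes tested. With quantile normalisation, which moved the median gene by -0.08, the split was 829 higher and 873 lower, or 48.7%. The count of 1448 changed strongly with the arrays left out. It was 599 without dStr 3, 622 without dStr 1 and 836 without dStr 2. Without BNST 3 it was 913, and without both BNST 1 and NAc 1 it was 2762. Of the called genes, 318 of the higher and 161 of the lower had a log2 difference of 1 or more. In bulk tissue, a lower level from fewer cells of a type and one from less RNA per cell cannot be told apart, and this holds for every gene below.

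Coch, which encodes the extracellular protein cochlin, had the largest difference among the genes higher in dStr. Its intensity was 612, 644 and 640 on the 3 dStr arrays, 124, 83.5 and 82.6 on the BNST arrays and 48.9, 29.7 and 29.2 on the NAc arrays. All 3 dStr arrays lay above the 6 limbic ones, as the choice of genes required, and NAc was the lowest region. The log2 difference from the limbic mean was 3.10 (SE 0.16, n = 3 and 6 arrays, limma adjusted p = 1.3e-05), or 8.59-fold. Rasgrp2, which encodes an activator of Rap GTPases known from the striatal matrix, measured 1054, 1035 and 1242 in dStr, 155, 64.2 and 83.8 in BNST and 243, 201 and 189 in NAc. It was 7.09-fold higher in dStr (log2 difference 2.83, SE 0.21, limma adjusted p = 0.00011). With the mean over the probe sets of the gene the log2 difference of Rasgrp2 was 1.16. Here BNST was the lower limbic region, as in most of the genes higher in dStr.

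Several of the other leading genes act on the actin cytoskeleton. Inf2, an actin-assembling formin, measured 1795, 1511 and 1829 in dStr, 286, 76.9 and 125 in BNST and 357, 495 and 406 in NAc. Nexn, an actin-binding protein gene, measured 862, 641 and 864 in dStr against 38.0 to 106 in BNST and 124 to 251 in NAc. Their log2 differences from the limbic mean were 2.72 and 2.69, and that of Inf2 was 1.72 with the mean of its probe sets. Synpo2, which encodes another actin-binding protein, was at 328, 299 and 314 in dStr and between 16.4 and 64.2 on the 6 limbic arrays (log2 difference 2.61), and another probe set of the gene differed in the opposite direction, the mean of both giving 1.24. Scn4b, a sodium channel beta subunit gene of medium spiny neurons, measured 3009, 3661 and 3347 in dStr, 578, 89.7 and 202 in BNST and 2625, 1407 and 949 in NAc. It did not overlap, as the choice of genes required, but its NAc arrays reached close to the dStr ones. Its log2 difference was 2.46 (SE 0.46, limma adjusted p = 0.008), and the adjusted p was 0.045 without dStr 3.

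The remaining leading genes higher in dStr were Lrrc10b (log2 difference 2.75), Acvr1c, a TGF-beta family receptor (2.66), Gprin3 (2.56), Syndig1l (2.46), Rasd2, a striatal small GTPase also called Rhes (2.44), and the growth factor gene Fgf20 (2.40). Rasd2 was the brightest, at 4529, 4577 and 5016 in dStr against 237 to 1161 in BNST and 1254 to 1569 in NAc. Gprin3 stood at the floor on 2 of the 3 BNST arrays, between 90.9 and 121 in NAc and between 340 and 453 in dStr. Acvr1c varied most within a limbic region, from 18.7 to 184 on the NAc arrays, and measured 380 to 477 in dStr. With the mean of their probe sets the log2 differences of Acvr1c and Gprin3 were 1.78 and 1.73.

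Cartpt, the precursor gene of the peptide CART, and Dlk1 had the largest differences of the genes lower in dStr. With dStr at or near the floor their order has no meaning, and it turned without both BNST 1 and NAc 1 (-3.83 and -3.90). Cartpt measured 20.7, 31.1 and 15 in dStr, 424, 204 and 290 in BNST and 1412, 1125 and 1065 in NAc. The dStr arrays lay at or near the floor while every limbic array was above 200. It was 16.2-fold lower in dStr (log2 difference -4.02, SE 0.22, limma adjusted p = 1.3e-05). Dlk1, an imprinted gene for a membrane protein of the Notch ligand family, measured 15, 17.6 and 15 in dStr, 2 of these at the floor, and between 242 and 728 on the limbic arrays (log2 difference -3.85, SE 0.34, limma adjusted p = 0.00019). Its BNST and NAc arrays overlapped, with group means of 443 and 522, and with the mean of its probe sets the difference was -2.26. Tac2, the neurokinin B precursor gene, measured 27.5, 26.6 and 21.4 in dStr, 843, 753 and 1294 in BNST and 147, 302 and 295 in NAc (log2 difference -3.58, SE 0.24, limma adjusted p = 6e-05). Cartpt and Tac2 thus shared a low level in dStr and had opposite orders in the limbic regions.

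Crh, which encodes corticotropin-releasing hormone, measured 15.5, 27.1 and 15 in dStr, 648, 476 and 303 in BNST and 59.97, 203 and 135 in NAc, and was 7.27-fold lower in dStr. Baiap3, a gene of dense-core vesicle release, measured 183, 139 and 126 in dStr, 1823 to 1925 in BNST and 459 to 1537 in NAc (log2 difference -3.03). Calb2, the calretinin gene of some interneurons, measured 45.5 to 76.1 in dStr, 809 to 1529 in BNST and 101 to 219 in NAc (log2 difference -2.54). The NAc arrays of Calb2 were much nearer to dStr than to BNST. The others were Tmem255a (-2.66), Wdr6 (-2.61), the thyrotropin-releasing hormone receptor gene Trhr (-2.61), the netrin receptor gene Unc5d (-2.43), the sodium-calcium exchanger gene Slc8a1 (-2.39) and the protocadherin gene Pcdh8 (-2.30). With the mean of their probe sets Tmem255a was at -2.01 and Slc8a1 at -1.74. The adjusted p of Trhr was 0.0074 and became 0.051 without dStr 1.

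**Figure D1:**
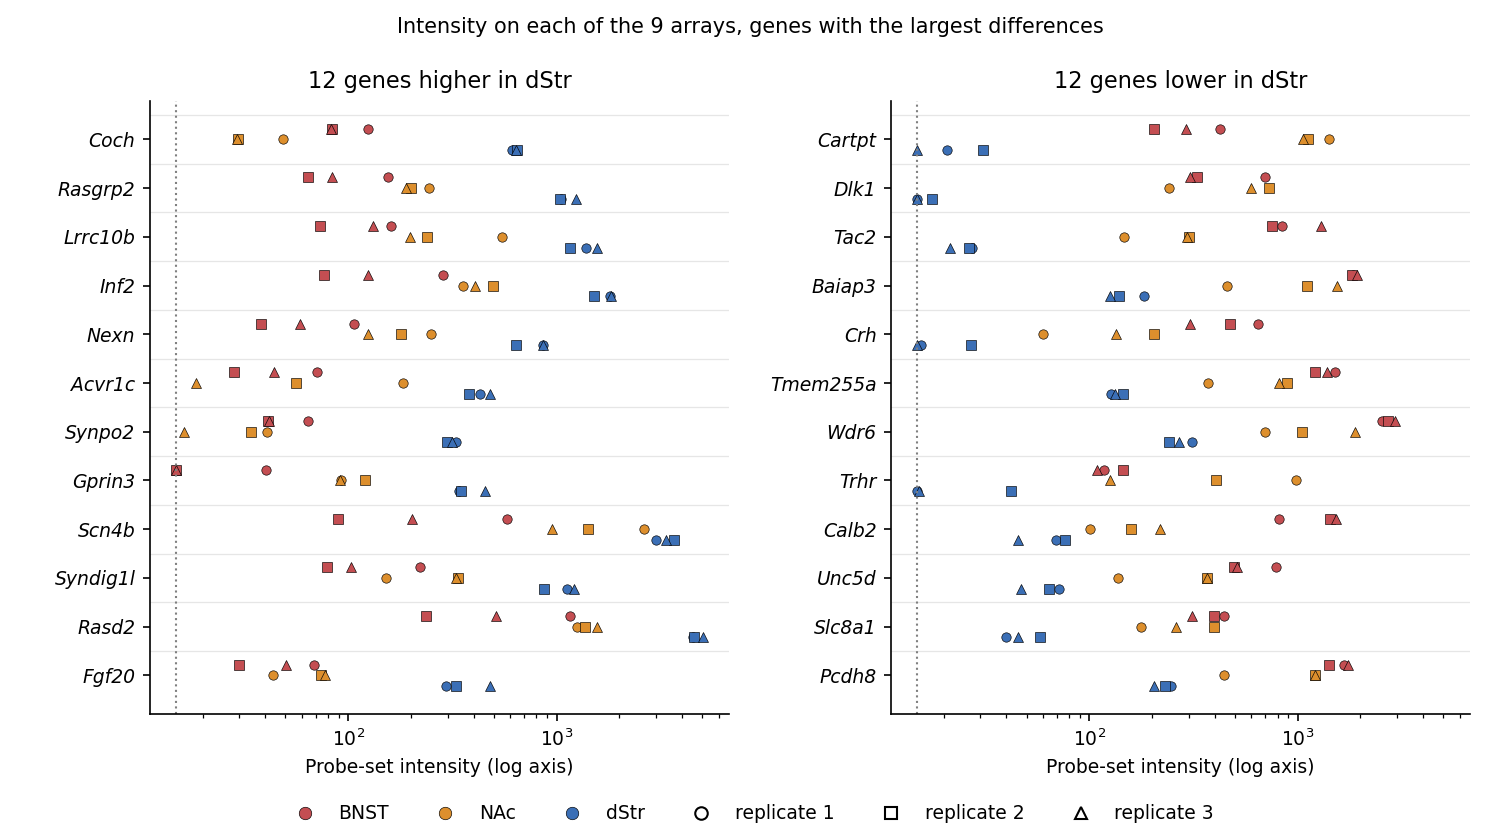
Probe-set intensity (log axis) on each of the 9 arrays for the 12 genes of largest difference in each direction, coloured by region and shaped by replicate number, with the floor of 15 as a dotted line. The dStr points lie apart from all limbic points in every gene, as the choice of genes required. In Scn4b the NAc points reach 2625, close to the lowest dStr value of 3009, and in Cartpt the dStr points lie between 15 and 31.1.

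A difference from the limbic mean can come from 1 limbic region. The differences of dStr from BNST and from NAc were therefore tested one by one. They share the dStr arrays and are not independent of each other. Against both regions in the same direction, 149 genes (1.05%) were higher in dStr and 111 (0.781%) lower. The total of 260 fell to 108 without dStr 3, 124 without dStr 1, 126 without dStr 2 and 166 without NAc 3, and it was 588 without both BNST 1 and NAc 1. Against BNST alone 14.3% of all genes differed, and against NAc alone 2.05%. Of the 892 genes higher than the limbic mean, 713 passed against BNST and not against NAc and 7 passed against NAc and not against BNST. Of the 556 lower genes the counts were 389 and 19. The median difference of the higher genes was 1.09 from BNST and 0.58 from NAc, and that of the lower genes -0.89 and -0.55. The dStr mean lay outside both limbic means in 887 of the higher and 546 of the lower genes.

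Whether a gene was unequally distant from the limbic regions was tested directly, as the difference between BNST and NAc, which differed in 318 of all genes tested (2.24%). It also differed in 141 of the 892 higher genes and in 89 of the 556 lower ones. BNST was farther from dStr in 139 and 83 of these, and NAc in 2 and 6. A gene at the same distance from both regions has a BNST to NAc difference near 0 by arithmetic. The genes that follow are given as examples of equal distance. Cntn5, a contactin adhesion gene, measured 210, 165 and 226 in dStr, 44.7 to 71.3 in BNST and 46.7 to 70.2 in NAc, and its log2 difference was 1.59 from BNST and 1.58 from NAc. Abhd11os, a transcript antisense to Abhd11, measured 168 to 271 in dStr and 28.8 to 38.1 over the 6 limbic arrays, with differences of 2.20 and 2.23. Among the lower genes, Sulf1, which encodes a heparan sulfate sulfatase, measured 26.1 to 37.1 in dStr and 132 to 221 over the limbic arrays (-2.03 from BNST and -2.02 from NAc), while another of its probe sets went the other way and the mean of its probe sets gave -0.73. Lynx1, a modulator of nicotinic receptors that was chosen after its values were seen, measured 790, 959 and 939 in dStr and 230 to 414 over the limbic arrays, with a difference of 1.46 from each.

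Further genes apart from both regions were Plxnd1, a semaphorin receptor gene, and Slc44a4, a choline transporter family gene. Plxnd1 measured 286, 168 and 300 in dStr and 18.7 to 70.4 over the limbic arrays. Slc44a4 was at the floor on all 3 BNST arrays and on 1 NAc array, and measured 175, 154 and 126 in dStr. That their limbic arrays lay below the dStr range was required by the choice of genes.

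**Figure D2:**
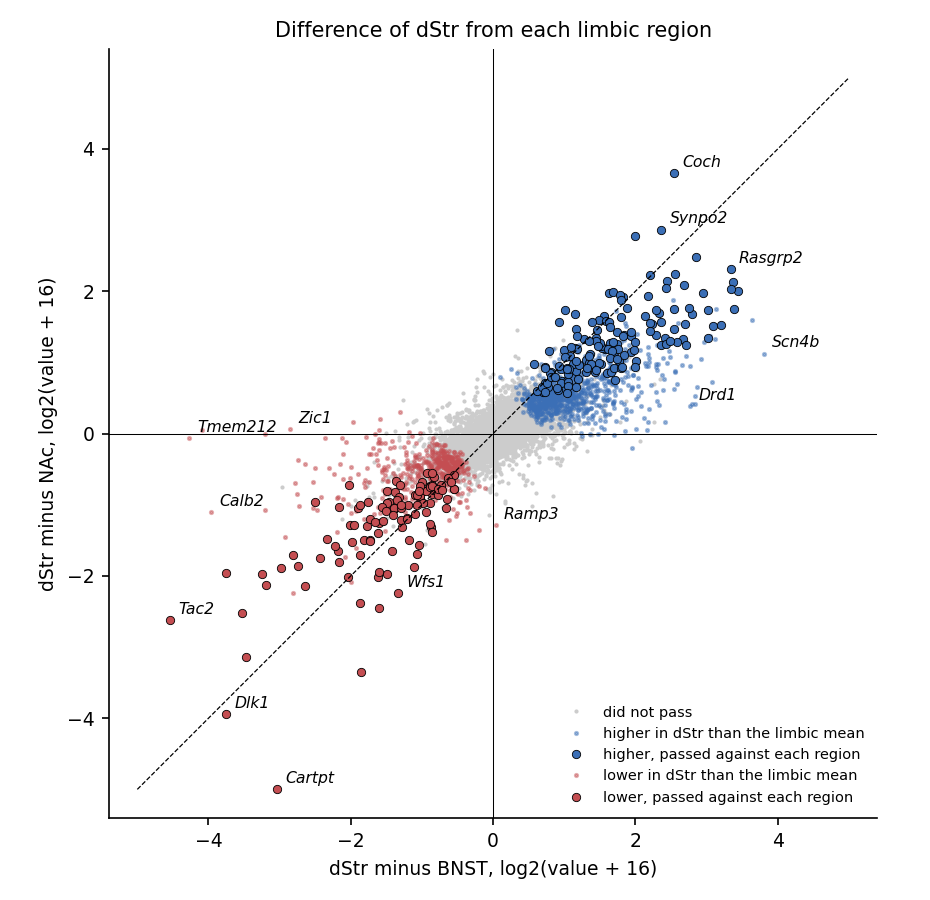
Log2 difference of dStr from BNST (horizontal) and from NAc (vertical) for the 14208 genes, which share the dStr arrays on both axes. Outlined points, 149 higher and 111 lower, passed against each region. Scn4b at 3.80 and 1.12 and Tmem212 at -4.27 and -0.06 show differences carried by BNST, and Cartpt lies on the NAc side of the dashed line of equal difference.

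The medium spiny neuron list held 33 tested members, of which 26 were higher in dStr than the limbic mean and 0 lower. This and every list count below stand beside the shares over all genes tested. These were 6.28% higher and 3.91% lower, and against both regions 1.05% and 0.781%. The median log2 difference of the list was 1.35 from the limbic mean, 2.13 from BNST and 0.67 from NAc, beside medians of 0.04, 0.06 and 0.01 over all genes tested. Leaving out dStr 3 gave 16, and leaving out dStr 1 or dStr 2 gave 17, whereas it was 31 without both BNST 1 and NAc 1. BNST 2, which had the lowest mean of the respiratory chain genes, also had the lowest mean log2 level of this list, 8.03, and the part of RNA quality in it was not tested. Only 6 members passed against both regions: Syndig1l, Ido1, Actn2, Drd2, Foxp1 and Rgs9. Rgs9, a striatal regulator of G-protein signalling, measured 2173, 2037 and 2423 in dStr, 466, 279 and 336 in BNST and 1013, 883 and 798 in NAc (log2 difference 1.94, limma adjusted p = 0.00016). Its 3 regions did not overlap. Foxp1, a transcription factor of striatal neurons, was similarly ordered at 2578 to 2681, 271 to 564 and 969 to 1333. Ido1, a tryptophan-degrading enzyme gene, had means of 633 ± 141 (SD, n = 3) in dStr, 76.6 ± 13.4 in BNST and 184 ± 26.5 in NAc.

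Of the dopamine receptor genes, Drd1 and Drd2 were higher than the limbic mean, and Drd3 was too dim to be tested. Drd2, the D2 receptor gene, measured 697, 476 and 725 in dStr, 120, 66.4 and 75.3 in BNST and 250, 216 and 252 in NAc. It passed against both regions, with differences of 2.66 and 1.33 (from the limbic mean 1.99, limma adjusted p = 0.00021). Drd1, the D1 receptor gene, measured 1837, 1992 and 1876 in dStr, 547, 121 and 275 in BNST and 1873, 1622 and 1016 in NAc, so that its NAc arrays overlapped those of dStr. Its difference from the limbic mean was 1.57 (limma adjusted p = 0.021, and 0.086 without dStr 1), and that from NAc alone was 0.38 (limma adjusted p = 0.76). Whether the 2 genes differ from each other in the NAc comparison was not tested. Ppp1r1b, which encodes the dopamine-regulated phosphatase inhibitor DARPP-32, measured 2034, 2121 and 2438 in dStr, 149 to 451 in BNST and 470.5 to 1131 in NAc.

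Of the peptide genes of the output pathways, Tac1 and Penk were near level in dStr and NAc, and Pdyn was lower in dStr than in NAc. Tac1, the substance P precursor gene, measured 3898, 4665 and 4020 in dStr and 3470 to 4965 in NAc, against 692 to 1564 in BNST. Its difference from the limbic mean was 0.94 (limma adjusted p = 0.03, and 0.12 without dStr 2), and that from NAc was 0.03. Penk, the enkephalin gene, had a difference of 0.68 from the limbic mean (limma adjusted p = 0.08) and 0.14 from NAc (limma adjusted p = 0.87), and Pdyn, the dynorphin gene, one of -0.40 (limma adjusted p = 0.13). Pdyn measured 249 to 336 in dStr, 230 to 303 in BNST and 514 to 718 in NAc, and its difference from NAc was -0.98 (limma adjusted p = 0.017). In the direct pathway list 3 of 10 tested members were higher (Drd1, Tac1 and Ebf1) and 1, Stmn2, was lower, a call lost without dStr 1, and 0 were higher without dStr 1, dStr 2 or dStr 3. In the indirect pathway list 2 of 9 were higher, Drd2 and the orphan receptor gene Gpr6 (1.90), and 4 were without BNST 1.

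The striatum is divided into matrix and striosomes, compartments that differ in chemistry and connections. Of 9 matrix genes, 4 were higher in dStr, Rasgrp2, Reln (1.24), Sv2b (1.02) and Epha4 (1.02), and 2 were lower, the G-protein subunit gene Gng2 (-1.77) and Gda (-0.58). The 4 became 2 without dStr 1 or dStr 3, the 2 became 1 without any 1 array other than BNST 2 or NAc 1, and another probe set of Epha4 went the other way. With the mean of their probe sets Reln was at 0.65 and Gng2 at -1.07. Of 14 striosome genes, 2 were higher and 3 lower, the latter being Nnat (-1.22), Kcnip1 (-0.82) and Lypd1 (-0.78). The higher count was 0 without dStr 2 and 1 without dStr 1 or dStr 3, and the lower one 1 without dStr 3 and 5 without NAc 1. With quantile normalisation the counts were 2 and 6, and without both BNST 1 and NAc 1 they were 4 and 5. Oprm1, the mu-opioid receptor gene that marks striosomes, had a difference of 0.85 that did not pass.

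Genes known from the ventral striatum and limbic forebrain were the opposite of the medium spiny neuron list. Of 20 tested members, 0 were higher in dStr and 15 lower, 9 of them against both regions. Among all genes tested 3.91% were lower, and 0.781% against both regions. The list had a median difference of -1.65 from the limbic mean, -1.56 from BNST and -1.28 from NAc. The lowest count on leaving out an array was 11, without dStr 1, and it was 15 without both BNST 1 and NAc 1. Besides Cartpt, Dlk1, Tac2, Crh and Calb2, the list held Wfs1, a gene of the endoplasmic reticulum. Wfs1 measured 527, 632 and 481 in dStr, 1067 to 1790 in BNST and 2335 to 2875 in NAc, so the 3 regions stood in a clear order with dStr lowest. Crym, a thyroid hormone-binding protein gene that is high in NAc, had a difference of -0.02 from the limbic mean, with its dStr level of 1938 to 2482 between those of BNST (683 to 1614) and NAc (3579 to 4331). Both lists were chosen with earlier results of these data known, so their directions are not independent evidence.

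**Figure D3:**
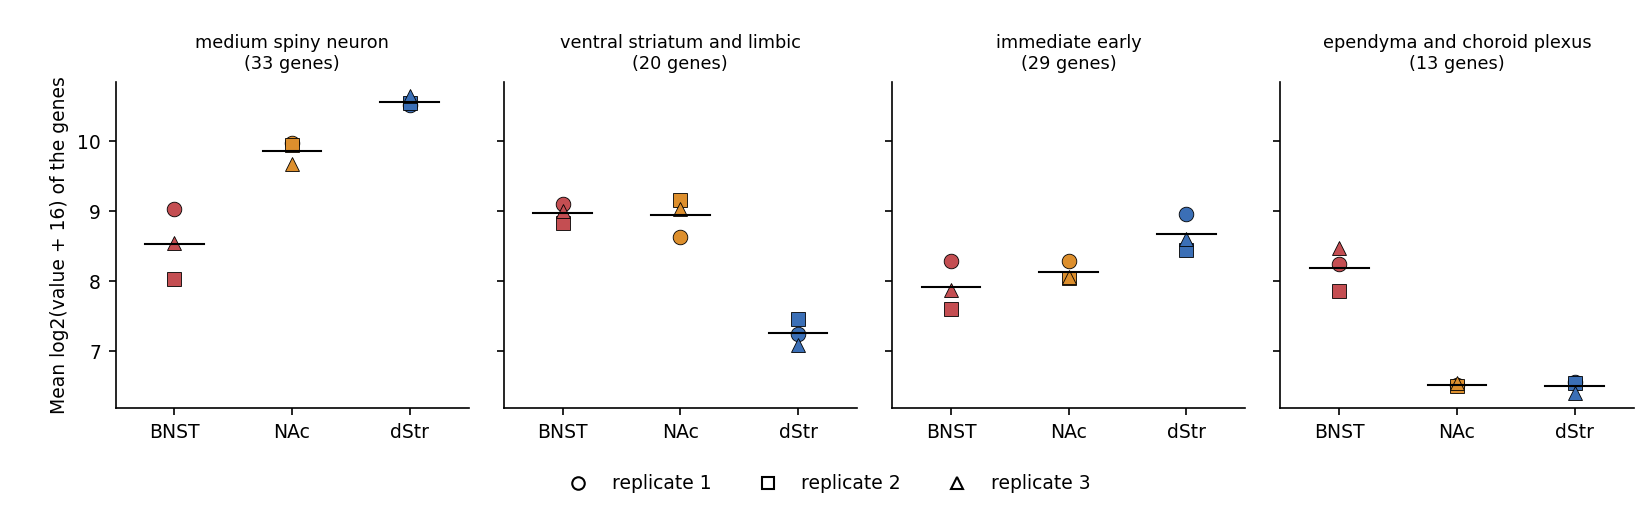
Mean log2(value + 16) of the tested genes of 4 lists on each array, with a bar at the mean of the 3 arrays. The medium spiny neuron list was at 10.51 to 10.64 in dStr, 9.67 to 9.97 in NAc and 8.03 to 9.04 in BNST, the ventral striatum and limbic list at 7.08 to 7.46 in dStr and 8.63 to 9.16 on the limbic arrays, and the ependyma list was high in BNST alone, at 7.85 to 8.47.

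Cyclic AMP and G-protein signalling, through which dopamine acts on these cells, had 45 tested members, of which 19 were higher and 5 lower in dStr. The lowest counts were 13 higher, without dStr 3, and 3 lower, without dStr 1 or dStr 3. The median difference was 0.45 from the limbic mean, 0.73 from BNST and 0.19 from NAc. Enzymes of both signs were present among the phosphodiesterases. Pde10a, the striatal phosphodiesterase, measured 4019, 3940 and 4297 in dStr, 335 to 1057 in BNST and 1280 to 3381 in NAc (log2 difference 1.86), and Pde7b had a difference of 1.63. Pde1a, a calcium-activated phosphodiesterase gene, was lower in dStr at 123, 96.1 and 118, against 327 to 571 in BNST and 443 to 844 in NAc (log2 difference -2.12, limma adjusted p = 0.0003), and passed against both regions. Ppp1r1a, a phosphatase inhibitor gene related to Ppp1r1b, was at the floor on 2 BNST arrays and measured 218 to 406 in dStr (2.12), with NAc 3, at 242, inside the dStr range. Prkar2a, a regulatory subunit gene of protein kinase A, was lower in dStr, at 441 ± 64.8 (SD, n = 3) against 1032 ± 178 in BNST and 895 ± 17.3 in NAc. Gnas, the imprinted gene of the stimulatory G-protein alpha subunit, had means of 1817 ± 155 (SD, n = 3), 4610 ± 377 and 2941 ± 726.

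Of 35 neuropeptide and hormone genes, 6 were lower in dStr (Cartpt, Tac2, Crh, Nts, Cbln4 and Pnoc) and 1, Tac1, was higher, a call that was lost without NAc 2, NAc 3 or any of the 3 dStr arrays. The neurotensin gene Nts measured 91.4, 301 and 56.0 in dStr, 734 to 1176 in BNST and 294 to 950 in NAc. Its dStr 2 value lay within the NAc range, and it no longer passed without dStr 1 (limma adjusted p 0.0073 with it, 0.051 without). Of 22 peptide receptor genes, 6 were lower and 0 higher: Trhr, the calcitonin receptor gene Calcr (-2.04), Npy2r (-1.91), the PACAP receptor gene Adcyap1r1 (-1.24), Cckbr (-0.79) and Sstr2 (-0.76). This count was 3 without dStr 1 or dStr 3. Both lists stand beside 6.28% higher and 3.91% lower among all genes tested. Adcyap1r1 had means of 502 ± 74.4 (SD, n = 3) in dStr, 1435 ± 112 in BNST and 1004 ± 105 in NAc, and passed against both regions, while 1 other probe set of it differed in the other direction.

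Of 19 amine and lipid receptor genes, 6 were higher in dStr and 1, the serotonin receptor gene Htr7 (-0.71), lower, the latter not without dStr 1 or dStr 3. The 6 were Drd2, Cnr1, Drd1, Htr1b (1.19), Chrm1 (0.66) and Hrh3 (0.49), and 2 passed without dStr 1, dStr 2 or dStr 3. The cannabinoid receptor gene Cnr1 measured 1497, 1601 and 2189 in dStr, 425 to 792 in BNST and 274 to 557 in NAc (log2 difference 1.84, limma adjusted p = 0.0018). It passed against both regions, by 1.69 and 1.99, and with the mean of its probe sets the difference from the limbic mean was 1.25.

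Among 20 glutamate receptor genes, 4 were higher (Grm4, Grm3, Gria3 and Grik2) and 2 lower, beside 6.28% and 3.91% of all genes tested. The higher count was 8 without BNST 1 and 1 without BNST 2, BNST 3, dStr 1 or dStr 3, and 2 without dStr 2. Grik1, a kainate receptor subunit gene, measured 42.6, 29.0 and 31.6 in dStr, 248 to 319 in BNST and 34.1 to 150 in NAc, where NAc 1 fell within the dStr range (log2 difference -1.79, or -0.94 with the mean of its probe sets). Grin3a, a subunit of NMDA receptors, had means of 111 ± 10.1 (SD, n = 3) in dStr, 384 ± 33.5 in BNST and 297 ± 102 in NAc, and passed against both. Of 14 GABA and glycine receptor genes, 2 were higher, Gabrd and Gabra4, which encode the delta and alpha-4 subunits of GABA-A receptors, and 4 lower (Gabrg1, Glra2, Gabra5 and Gabrb1). The 4 became 2 without dStr 3, and the 2 became 4 without BNST 1. Gabrd measured 865, 847 and 1032 in dStr, 91.6 to 198 in BNST and 377 to 559 in NAc (1.72, or 1.08 with the mean of its probe sets). Gabra5 was lower than in both regions, at 398 ± 108 against 763 ± 80.6 in BNST and 868 ± 213 in NAc.

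Potassium channel genes passed in both directions, with 13 of 41 higher and 5 lower, and without dStr 1 or dStr 3 the counts were 6 and 2. Kcna4, which encodes an A-type voltage-gated channel, measured 561, 441 and 459 in dStr, 61.8 to 113 in BNST and 147 to 371 in NAc (log2 difference 1.65). The inward rectifier gene Kcnj2 (1.19) was higher, whereas Kcnj3 (-0.87), which encodes a G-protein-gated inward rectifier, was lower, with another probe set the other way. Kcnd3, an A-type channel gene, was lower against both regions at 336 ± 48.9 (SD, n = 3), 641 ± 59.8 and 576 ± 18.4 in dStr, BNST and NAc. Of 30 sodium and calcium channel genes, 14 were higher and 2 lower, and the 14 became 6 without dStr 1 or dStr 3 and 9 without dStr 2 or BNST 3. Ryr1, an intracellular calcium release channel gene, was higher at 346 ± 41.1 against 66.9 ± 27.1 in BNST and 179 ± 61.6 in NAc. The calcium channel gamma subunit family was split, with Cacng4 (1.24) higher and Cacng5 (-1.80, or -0.94 with the mean of its probe sets) lower.

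Of 49 forebrain transcription factor genes, 9 were higher in dStr and 6 lower, and the 9 became 5 without any 1 of the 3 dStr arrays. The higher ones included Foxp1, the retinoid receptor genes Rxrg (1.69) and Rarb (1.62), and Onecut2 (1.48). Onecut2 measured 385, 318 and 302 in dStr and 81.4 to 131 over the limbic arrays, and passed against both regions. Rarb measured 671 to 851 in dStr, 67.0 to 137 in BNST and 383 to 721 in NAc, overlapping dStr in NAc alone. The lower ones were Dlx1, Otx2, Zic1, Sp8, Zic4 and Zic5. None of these 6 passed against both regions, and all were highest in BNST.

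Immediate early genes, which neurons switch on with activity, were measured in 29 members, of which 9 were higher in dStr and 0 lower, with a median difference of 0.43. The lowest count on leaving out an array was 7, without dStr 1. Egr2, Egr3, Egr4 and Ier5 passed against both regions. Egr3 measured 1047, 1175 and 1209 in dStr, 281, 137 and 207 in BNST and 516, 561 and 290 in NAc (log2 difference 1.88, limma adjusted p = 0.00094, or 1.10 with the mean of its probe sets). Egr2 measured 614, 339 and 241 in dStr and 52.5 to 158 over the limbic arrays, with dStr 1 the highest. Egr4 likewise had its highest value, 670, on dStr 1, and 418 and 369 on the others. Fos, the classical member, measured 590, 103 and 219 in dStr, 591, 133 and 303 in BNST and 392, 106 and 215 in NAc, so that the regions overlapped fully (log2 difference -0.04, limma adjusted p = 0.98). In each region the array numbered 1 had the highest Fos value and the array numbered 2 the lowest. The mean log2 level of the list was likewise highest on the arrays numbered 1 and lowest on those numbered 2, at 8.29 and 7.60 in BNST and 8.96 and 8.44 in dStr, while NAc 2 and NAc 3 were nearly level, at 8.05 and 8.06. Arc measured 1283, 313 and 754 in dStr and 101 to 477 over the limbic arrays, and did not pass (1.61, limma adjusted p = 0.066).

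Of 37 imprinted genes, 14 were lower and 2 higher in dStr, with 6 of the lower and 1 of the higher against both regions, and the median difference was -0.33. The lower count was 11 without any 1 dStr array, and the higher one 1 without any 1 array other than BNST 1 or BNST 2. Over all genes tested, 3.91% were lower and 6.28% higher. Usp29 measured 81.8, 101 and 60.7 in dStr, 241 to 274 in BNST and 176 to 203 in NAc (-1.30). Nnat, which encodes the membrane protein neuronatin, was abundant in each region, at 939 to 1623 in dStr, 3285 to 3451 in BNST and 2100 to 2996 in NAc. Magel2 and Asb4 (-1.61 and -1.55) were lower through BNST, with differences of -0.68 and -0.37 from NAc that did not pass. Cobl, an actin nucleator gene, was the largest of the 2 higher genes (1.38), and 1 of its probe sets went the other way, the mean of its probe sets giving 0.63. Of 16 steroid receptor and hormone target genes, 2 were lower, the orphan receptor gene Gpr101 (-1.51) and the thyroid hormone receptor gene Thrb (-0.54), and 1 passed without any 1 dStr array, BNST 2, BNST 3 or NAc 3.

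The list of actin and GTPase regulator genes held 46 tested members, of which 18 were higher in dStr and 2 lower, with a median difference of 0.47. The 18 became 10 without dStr 3 and 11 without dStr 2, and the 2 became 4 without BNST 1 and 1 without NAc 2, NAc 3 or any 1 dStr array. With quantile normalisation 4 were lower. Besides Rasgrp2, Inf2, Nexn and Synpo2, the alpha-actinin gene Actn2 had means of 554 ± 65.8 (SD, n = 3) in dStr, 83.7 ± 27.5 in BNST and 154 ± 33.2 in NAc, and the Rac exchange factor gene Tiam2 means of 610 ± 28.1, 111 ± 51.6 and 338 ± 28.5. Rasgrf2, a Ras exchange factor gene, went the other way, at 61.5, 67.4 and 78.7 in dStr, 518 to 678 in BNST and 167 to 332 in NAc (log2 difference -2.26, limma adjusted p = 0.00019, or -1.43 with the mean of its probe sets).

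Axon guidance and adhesion genes, which set how regions are wired, passed in both directions, with 19 of 71 higher and 13 lower, and 8 and 6 of these against both regions. Their median was -0.02. The higher count was 10 without dStr 1. Higher in dStr were Plxnd1 and its relatives in semaphorin signalling Sema3a (1.04) and Sema7a (0.97), the Slit gene Slit3 (1.12), the contactins Cntn5 and Cntn4 (1.54) and the cadherins Cdh8 (1.25) and Cdh9 (0.72). Lower were the receptors Unc5d, Plxnc1 (-1.62), Nrp2 (-1.18) and Nrp1 (-1.11) and the protocadherins Pcdh8 and Pcdh19 (-1.92). Other probe sets of Cntn4 and Plxnc1 went the other way, and the mean of its probe sets put Cntn4 at 0.49. Nrp1, a semaphorin co-receptor gene, had means of 163 ± 17.8 (SD, n = 3) in dStr, 438 ± 91.5 in BNST and 316 ± 16.2 in NAc, and Sema3a, one of its known ligands, means of 253 ± 32.6, 118 ± 16.6 and 112 ± 17.3.

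**Figure D4:**
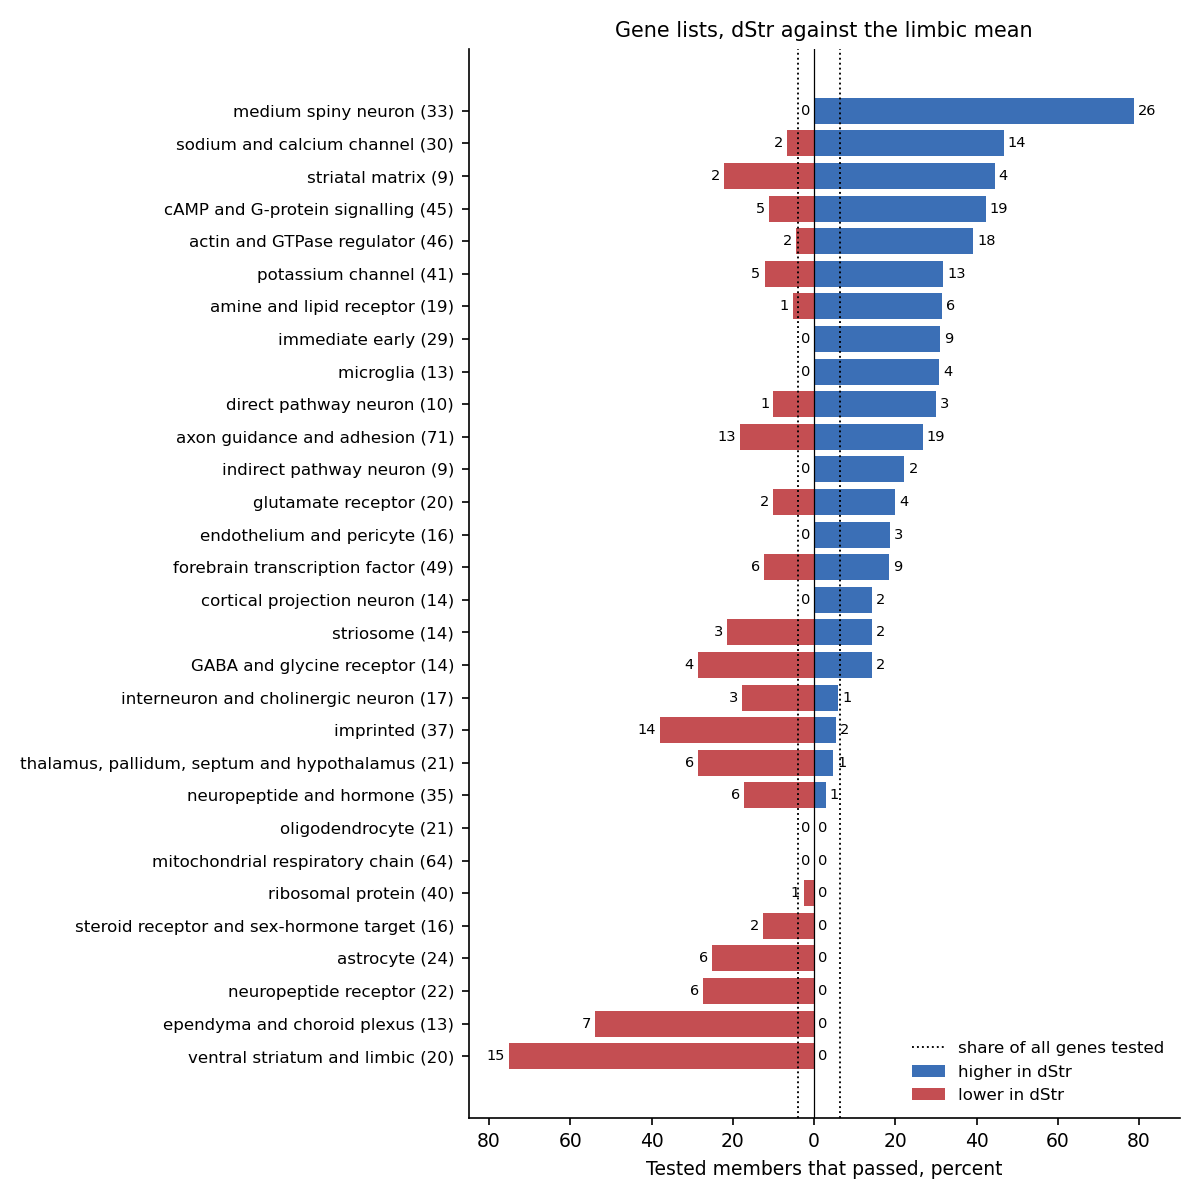
Percent of tested members of each list that were higher (right, blue) or lower (left, red) in dStr than the limbic mean, with the number of genes beside each bar, the members tested in brackets and the share of all genes tested as dotted lines at 6.28% and 3.91%. The medium spiny neuron list (26 of 33 higher) and the ventral striatum and limbic list (15 of 20 lower) are at the ends.

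Some of the lower genes are known markers of ependyma and choroid plexus, the cells that line the ventricles and make their fluid. Where this RNA came from was not tested. Of 13 ependyma and choroid plexus genes, 7 were lower in dStr and 0 higher, but the median difference was -1.32 from BNST and 0.00 from NAc, and 0 members passed against both regions. Tmem212 measured 561, 371 and 936 in BNST, 15 to 19.3 in NAc and 15, the floor, on all dStr arrays. Otx2, a homeobox gene of the choroid plexus, measured 372, 209 and 250 in BNST and stood at the floor on all 6 other arrays. Ccdc153 measured 379 to 1201 in BNST, at most 26.3 in NAc and 15 to 34.7 in dStr. The transcription factor gene Zic1 was of the same kind, at 2028 to 2684 in BNST, 184 to 490 in NAc and 291 to 332 in dStr, with a difference of 0.06 between dStr and NAc. The limbic mean gives BNST equal weight with NAc, and in these genes the dStr arrays overlapped the NAc arrays or stood with them at the floor. The lowest count of the ependyma and choroid plexus list on leaving out an array was 5, without any 1 dStr array.

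Markers of other cell types were counted beside these. Of 24 astrocyte genes, 6 were lower in dStr and 0 higher (Mlc1, Agt, Gfap, Gjb6, Atp1b2 and Gja1), 2 without dStr 3, and 0 against both regions. Their mean log2 level was 9.01 to 9.08 in dStr, 8.95 to 9.30 in NAc and 9.46 to 9.66 in BNST. Of 13 microglia genes, 4 were higher (Ly86, C1qb, P2ry12 and Tmem119), and 0 without BNST 2, BNST 3, dStr 2 or dStr 3 and 1 without dStr 1. Their mean level was 8.49 to 8.62 in dStr and 7.70 to 8.41 on the limbic arrays. Of 16 endothelial and pericyte genes, 3 were higher (Rgs5, Flt1 and Abcc9), 0 without dStr 3 and 1 without BNST 3, dStr 1 or dStr 2, with a mean level of 8.09 to 8.23 in dStr and 7.86 to 7.95 on the limbic arrays. Of 21 oligodendrocyte genes 0 passed in the limma fit, 3 had an unadjusted p under 0.05, all lower, and 1 passed as higher and 2 as lower without both BNST 1 and NAc 1. Their mean level was 9.39 to 9.55 in dStr and 9.01 to 9.70 on the limbic arrays. Over all genes tested, 6.28% were higher and 3.91% lower. The part of these cell types in the counts of the other lists was not tested.

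Of 64 respiratory chain genes 0 passed in the limma fit, 3 had an unadjusted p under 0.05 as higher and 1 as lower, and 5 passed as higher without both BNST 1 and NAc 1. Their median difference was 0.09, and of 40 ribosomal protein genes 1, Rps3, was lower (-0.39), a call lost without any 1 array other than BNST 1 or NAc 2 and with the mean of its probe sets (-0.12). Of 17 interneuron and cholinergic genes, Kit (0.68) was higher and Calb2, Gad2 (-0.66) and Crhbp were lower, of which 1 passed without any 1 of the 3 dStr arrays. The call of Kit was lost without any 1 dStr array, BNST 2 or BNST 3, and those of Kit and Gad2 with the mean of their probe sets. Of 21 genes of the thalamus, pallidum, septum and hypothalamus, 6 were lower, among them Calb2, the cation channel gene Trpc4 (-1.40) and the glutamate transporter gene Slc17a6 (-1.20), and 1, Nefm, was higher, a call lost without BNST 2 or any of the 3 dStr arrays. The 1 higher gene of 17 and of 21 was near the share over all genes tested, 6.28%. The share of lower genes over all was 3.91%.

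The NAc mean was farther from dStr than the BNST mean in 64 of the 892 higher and 84 of the 556 lower genes. Among the genes that differed from the limbic mean and between the limbic regions, NAc was the farther region in 8: Coch and Clstn2, which were higher in dStr, and Cartpt, Lin7a, Ramp3, Stard5, Ttc39c and Wfs1, which were lower. These 8 names were read from the result. Ramp3, which encodes a receptor activity-modifying protein, measured 106, 84.6 and 79.3 in dStr, 108, 79.7 and 75.6 in BNST and 178, 300 and 261 in NAc. Its dStr and BNST levels overlapped, and its difference was -1.29 from NAc and 0.04 from BNST.

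Among the 5470 kept probe sets with no gene symbol or several, 362 (6.62%) differed between dStr and the limbic mean, 239 of them higher and 123 lower. The genes of the lists that had no probe set with their symbol, such as Adora2a, were not analysed here.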

How the data were processed

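Per the labels' protocols, RNA was isolated with Stat-60 and labelled in 2 cycles for Mouse430_2 arrays. The authors deposited 1 table of linear probe-set intensity for 45037 probe sets on 9 arrays, grouped here by region from the sample titles, with low values set to a floor of 15. Which software summarised and scaled them is not given in the sources used. Array medians ran from 93.9 to 102 and the deposited scaling was kept. The number of arrays limits the precision.

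Probe sets above the 40th percentile of the array on 3 or more arrays were retained (29293). Platform annotation gave 1 symbol to 34945 probe sets, several to 932 and none to 9160, and 34741 symbols were matched by Entrez identifier. Each gene took its brightest retained probe set, giving 14208 genes, 5897 with several. Values were fitted as log2(value + 16) with limma 3.58.1 in R 4.3.3, 1 mean per region and 6 residual degrees of freedom, with 2-sided moderated tests and Benjamini-Hochberg adjustment over all genes at 0.05. 

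The comparison and the 30 gene lists (900 symbols, 718 tested) were chosen with earlier results of these data known. Counts over lists carry no test. The named genes were, per direction, the 12 of largest difference from the limbic mean and the 10 apart from both regions, in each case with arrays that did not overlap and a bright side above the median of all probe sets. Added were the 6 per direction that also differed most between BNST and NAc, and up to 3 passing members per list. Transcripts without an established name were skipped. Other genes given were chosen after their values were seen.

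On simulated data of 14208 genes for dStr against the limbic mean, 79% of genes changed by 1 on the log2 scale and 97% of those changed by 2 were found, with 5 false calls and 0 wrong signs. The noise was normal and independent between genes and arrays, and BNST and NAc had the same mean. Changes were placed only in genes above the median level. Deviations of whole arrays, such as those of BNST 1 and NAc 1, were not simulated, so these figures may not hold for these data. Alternatives were quantile normalisation, median centring, no filter and a 60th percentile filter, the mean of probe sets, a robust prior with a trend, the replicate number as a block, pseudocounts of 64 and 1, a 2-group model, a log2 difference of at least 1, and leaving out each array. Leaving out BNST 1 and NAc 1 together was added after the data were seen.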

Additional observations from a re-analysis of the deposited data

Results flagged for a closer look

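For 37 of the 113 genes named by the rule, the difference of dStr from BNST and its difference from NAc were unequal by a direct test (limma, BNST minus NAc, adjusted p under 0.05 over all genes), beside 2.24% of all genes tested. All 113 also differed from the limbic mean. Of the genes that did, 141 of the 892 higher and 89 of the 556 lower passed the direct test. Of the 37, 12 were named because they differed most in this same test, so the count is no evidence of its own. The values below are that log2 difference, with n = 3 arrays per region. The groups of 3 arrays were too small for a test of single outlying arrays.

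The genes with a higher level in BNST than in NAc were Tmem212 (4.20), Ccdc153 (4.15), Otx2 (3.20), Zic1 (2.91), Calb2 (2.86), Asb4 (2.36) and Dlx1 (2.12), followed by Tac2 (1.92), Cacng5 (1.90), Magel2 (1.85), Trpc4 (1.81), Crh (1.79), Gfap (1.74) and Kcnj3 (1.49) and then Gpr101 (1.19), Coch (1.12), Rasgrf2 (1.10), Stmn2 (1.02), Mlc1 (1.02) and Htr7 (0.75). Of these 20, Coch was higher in dStr and farther from NAc, and the others were lower in dStr and farther from BNST.

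The genes with a lower level in BNST than in NAc were Scn4b (-2.68), Rarb (-2.42), Drd1 (-2.38), Serpina9 (-2.37), Gpr6 (-2.36), Lpl (-2.31), Cartpt (-1.96) and Cacna2d3 (-1.86), followed by Tac1 (-1.82), Gabrd (-1.68), Gprin3 (-1.63), Foxp1 (-1.46), Kcna4 (-1.35), Drd2 (-1.34), Rgs9 (-1.30), Rasgrp1 (-1.27) and Grm4 (-0.80). Cartpt was lower in dStr and farther from NAc, and the others were higher in dStr and farther from BNST. The peptide precursor genes Cartpt, Tac2, Crh and Tac1 are in this set, as are the dopamine receptor genes Drd1 and Drd2.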

How the results depend on the processing

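None of the 113 named genes changed direction under the alternatives run, and 73 of them passed in all 9 fits that left out 1 array. The other 40 were lost in at least 1 of these. Leaving out 1 array gave 599 to 1994 genes, 351 to 1347 higher and 245 to 688 lower. It gave 108 to 381 apart from both regions, 101 to 617 between BNST and NAc, and 111 to 542 probe sets without 1 symbol. The highest totals came without BNST 1 or NAc 1, and the lowest without dStr 3 or dStr 1, except between BNST and NAc, where the lowest count of 101 came without BNST 3. Leaving out BNST 1 and NAc 1 together gave 2762 genes (1787 higher, 975 lower), 588 apart from both, 2203 for the difference between the limbic regions and 683 probe sets, and 1443 of the 1448 genes were among the 2762. Quantile normalisation raised the lower count to 873. The 2-group model, whose residual takes in the spread between BNST and NAc by construction, gave 688 genes (419 higher, 269 lower) and 173 probe sets, and lost 48 of the named genes. Requiring a log2 difference of at least 1 left 479 genes (318 and 161), 158 apart from both and 132 probe sets. The replicate block gave 950 genes (591 higher, 359 lower), 165 apart from both and 196 between BNST and NAc, 933 of the 950 being shared. The numbers were not taken to pair the samples. Same-numbered arrays correlated in their deviations from the group means at r of -0.51, -0.22 and -0.25 between BNST and NAc, 0.06, 0.21 and -0.11 between BNST and dStr, and -0.16, 0.02 and 0.26 between NAc and dStr, so not every pair exceeded 0.1, although Fos ran alike over the numbers in each region. The filters, pseudocounts, the prior, the mean of probe sets and median centring kept every count within 1.5 times its value. Single genes moved more: with the mean of probe sets the folds of 22 named genes fell by over 1.5 times and 7 calls were lost. The cause of the other changes was not tested. Signals near the floor limit the folds of dim genes.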
